A study of Mus musculus with 80 samples.

Results

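Mitochondrial ribosomal proteins are the protein part of the ribosome inside mitochondria, and their mRNAs were followed here in mouse heart during sleep and sleep deprivation. Members were the genes whose array symbol was Mrpl (large subunit) or Mrps (small subunit) followed by a digit, on a probe set annotated with that symbol alone. This gave 74 genes on 87 probe sets, of 18820 symbols on the array, and each gene was read from its probe set of highest mean intensity. By the structures of the mammalian mitochondrial ribosome 48 members belong to the large subunit and 25 to the small one, and Mrps36 is instead a component of the 2-oxoglutarate dehydrogenase complex. The choice rested on names and annotation, so no measured difference between groups selected a member.

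The mitochondrial ribosome translates the few mRNAs encoded by mitochondrial DNA, all of them for inner-membrane subunits of the respiratory chain and of ATP synthase. Its proteins are encoded in the nucleus, made in the cytosol and imported, while its ribosomal RNAs are made in the organelle. Heart muscle draws on ATP made by the complexes that this ribosome helps to build, and cardiomyocytes are among the cells richest in mitochondria.

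Heart RNA of 80 male C57BL/6J mice of about 10 weeks was measured on Affymetrix Mouse Gene 1.0 ST arrays, 1 animal per array. All mice lived in 12 h of light and 12 h of dark and had been fed at night alone for 14 days, so that daytime waking would bring no extra food. Groups were baseline, killed at lights on (10 animals); sleep-deprived by gentle handling from lights on for 3, 6, 9 or 12 h (8, 9, 9 and 8 animals); and sleeping, left undisturbed for the same times (9 animals each). Strain, sex and feeding were the same in all groups, and behaviour was followed by movement through infrared beams, without electroencephalography. Values are log2 intensities after robust multi-array averaging (RMA), in which a difference of 1 means 2 times the intensity; intensities of different probe sets are not compared as amounts of mRNA.

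The 80 arrays had medians between 5.23 and 5.395 and correlated with each other at 0.978 to 0.995. The 9 cardiomyocyte markers had a mean of 12.57 to 12.77 on every array. In mean correlation with the others 5 arrays stood apart, at a distance of over 1.5 interquartile ranges under the lower quartile: sleep-deprived 3 h replicate 5, sleep-deprived 6 h replicate 5, sleep-deprived 12 h replicate 3, sleeping 3 h replicate 1 and sleeping 9 h replicate 1. The numbers in the sample titles fell into 4 runs: the 9 h and 12 h animals were all in 2 of them and the baseline, 3 h and 6 h animals in the other 2, with both states in every run. What a run stands for is not stated, and the step between 6 h and 9 h cannot be told apart from the step between runs.

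All 74 members were measured above the middle of the array. Their mean log2 intensities ran from 5.73 to 10.7 with a median of 8.68, which placed them between the 54.9th and the 96.7th percentile of all 35556 probe sets. The 6 brightest were Mrps21 at 10.74, Mrpl34 at 10.60, Mrpl23 at 10.52, Mrpl51 at 10.39, Mrpl3 at 10.34 and Mrps23 at 10.31. The 6 dimmest were Mrps26 at 5.73, Mrps12 at 5.90, Mrpl20 at 6.58, Mrpl22 at 6.67, Mrpl21 at 6.89 and Mrpl44 at 6.93. Animals of 1 group differed little: the SD within groups was between 0.0743, for Mrpl37, and 0.256, for Mrpl12, with a median of 0.117. Mrpl12 is the counterpart of the bacterial stalk protein that recruits translation factors, and Mrpl37 is found in mitochondrial ribosomes but not in bacterial ones.

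The mean over the 74 members was lower late in the day in both states. It was 8.72 ± 0.0323 at baseline (SD, n = 10). In sleep-deprived hearts it was 8.72 ± 0.0957 at 3 h, 8.65 ± 0.0392 at 6 h, 8.63 ± 0.0459 at 9 h and 8.61 ± 0.0485 at 12 h. In sleeping hearts it was 8.69 ± 0.0301, 8.67 ± 0.0382, 8.60 ± 0.0685 and 8.60 ± 0.043 at the same times. The lowest of the 10 baseline animals had 8.68, and below it lay 8 of 9 sleep-deprived and 9 of 9 sleeping animals at 9 h, and 8 of 8 sleep-deprived and 9 of 9 sleeping animals at 12 h. At 3 h this held for 2 of 8 sleep-deprived and 4 of 9 sleeping animals, so both states overlapped baseline early, and the sleeping animals at 9 h and both states at 12 h lay wholly below it. The values of sleep-deprived and sleeping animals of 1 time overlapped at all 4 times.

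**Figure D1:**
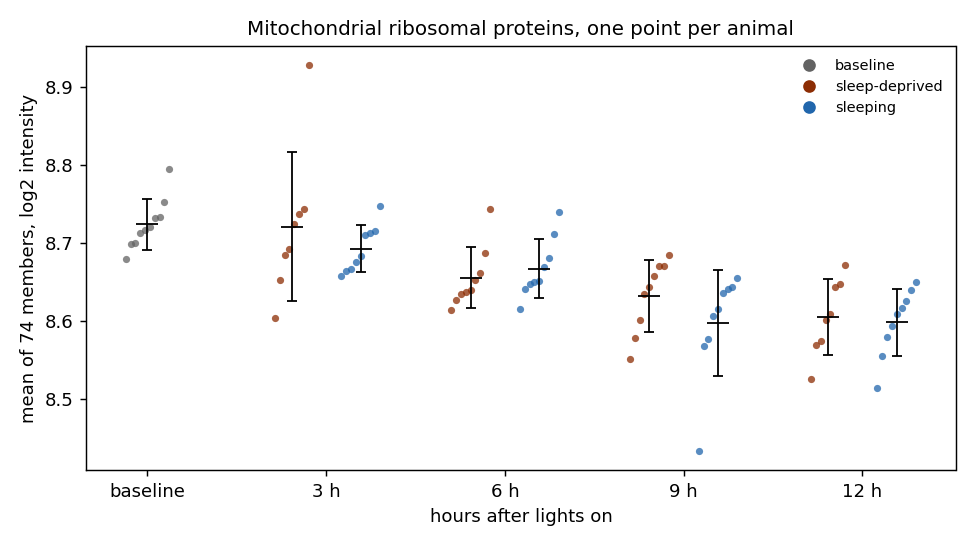
Mean log2 intensity of the 74 members (y) by hours after lights on (x), 1 point per animal, with the mean and SD of each group in black. All sleeping animals at 9 h and 12 h, and all sleep-deprived animals at 12 h, lie below the lowest baseline value of 8.68, while the states overlap at each time.

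A linear trend on hours was fitted with limma to baseline and the 4 groups of a state, with Benjamini-Hochberg adjustment over all probe sets and a false discovery rate of 1%. Over sleep (46 arrays) 34 of 74 members fell, or 45.9%, where 9.32% of all probe sets fell. In the same fit 4 members rose, or 5.41%, where 8.23% of all probe sets rose. Over deprivation (44 arrays) 15 of 74 fell, or 20.3%, where 6.09% of all probe sets fell, and 0 rose, where 4.07% of all probe sets did. Because dim probe sets are rarely called, the same was counted over the 9533 symbols whose mean intensity lay in the members' range: 21.9% of them fell over sleep and 15.2% over deprivation, so the members' share over deprivation lay near that background. The median slope of the members was a log2 change of -0.15 over 12 h of sleep, against 0.02 over all probe sets and -0.02 over the symbols of like intensity, and of -0.12 over 12 h of deprivation, against -0.01 and -0.04. Slopes were below 0 in 61 of 74 members over sleep, where 55.2% of the symbols of like intensity were, and in 70 of 74 over deprivation, where 59.5% were. Both trends share the 10 baseline animals, and the difference between their counts was not tested. In whole tissue, fewer cells of a type and less RNA per cell cannot be told apart.

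**Figure D2:**
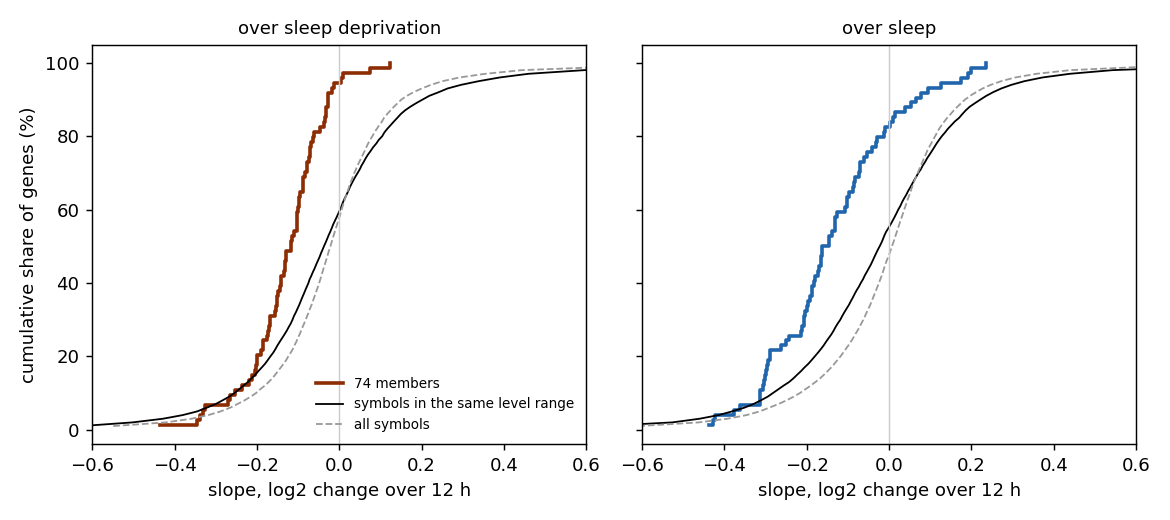
Cumulative share of genes (y, %) by slope expressed as log2 change over 12 h (x), over sleep deprivation (left) and over sleep (right), for the 74 members, for the symbols in the members' range of intensity and for all symbols. The members' curve lies to the left over its middle and upper part in both panels and meets the curve of like intensity among the steepest falls, with medians of -0.12 over deprivation and -0.15 over sleep.

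The calls over time depended on whether the run of sample titles was a factor in the fit. That factor also widened the standard errors, since the runs divide early from late times. The change of Mrps2 over 12 h of sleep went from -0.42 ± 0.042 (SE) to -0.30 ± 0.0801 with it. That of Mrpl45 over 12 h of deprivation went from -0.33 ± 0.0568 to -0.46 ± 0.121. The part of this lower precision in the loss of calls was not tested. With the run as a factor in the trend no member passed in either state, where 0 of 74 compares with 34 and 4 over sleep and 15 over deprivation without it. Slopes were then below 0 in 63 of 74 members over sleep, with a median of -0.10 over 12 h, and in 67 of 74 over deprivation, with a median of -0.14, where 54.5% and 53.7% of all probe sets were below 0. These were in part other members, since 16 of 74 slopes changed sign over sleep and 9 of 74 over deprivation. Over all probe sets the calls went down as well with that factor, to 509 over sleep and 793 over deprivation, against 6241 and 3611 without it. Within the run that held baseline, 64 of 74 members were lower on average in the 5 sleeping animals at 6 h than in the 10 baseline animals, with a median difference of -0.05 (log2), where 58.7% of all symbols were lower. In the 5 sleep-deprived animals at 6 h of that run 59 of 74 were lower than at baseline, where 63.8% of all symbols were lower. At 3 h of that run 49 were lower than at baseline in sleeping and 55 in sleep-deprived animals (62.3% and 48.1% of all symbols). From 3 h to 6 h of sleep 48 and 46 were lower in the 2 early runs (46.1% and 47.2%). From 3 h to 6 h of deprivation 48 and 61 were (64.3% and 57.5%). From 9 h to 12 h of sleep 33 and 50 were lower in the 2 late runs (53.3% and 50.8%). From 9 h to 12 h of deprivation 45 and 46 were (48.5% and 43.6%). Between 9 h and 12 h, which share the late runs, 0 of 74 members passed in either state, where 0.2% of all probe sets passed in sleep-deprived and 1.33% in sleeping hearts (4 members in each state at an unadjusted p under 0.05, which 13% of all symbols met in sleep-deprived and 15.3% in sleeping hearts). The differences for 12 h against 9 h ran in sleep-deprived hearts from -0.19 for Mrpl45, -0.19 for Mrpl47 and -0.15 for Mrps27 up to 0.06 for Mrpl28, 0.07 for Mrps12 and 0.21 for Mrps26. In sleeping hearts they ran from -0.13 for Mrpl47, -0.11 for Mrpl33 and -0.10 for Mrpl19 up to 0.14 for Mrpl20, 0.17 for Mrps16 and 0.22 for Mrps26.

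Each group was also set against baseline, in 1 limma fit of all 80 arrays; these 8 comparisons share the baseline animals. In sleep-deprived hearts 0 of 74 members passed at 3 h and 1 at 6 h, where 1.54% and 4.44% of all probe sets passed. At 9 h 6 were lower and 0 higher, where 3.96% and 2.65% of all probe sets were, and at 12 h 11 were lower and 0 higher, where 5.9% and 3.85% were. In sleeping hearts 0 of 74 passed after 3 h or 6 h, where 0.16% and 1.54% of all probe sets passed. At 9 h 23 were lower and 1 higher, where 4.96% and 3.47% of all probe sets were, and at 12 h 21 were lower and 2 higher, where 6.51% and 5.33% were. After deprivation 8.11% of the members were lower at 9 h and 14.9% at 12 h, near the 9.49% and 15.2% of the symbols of like intensity. After sleep 31.1% of the members were lower at 9 h and 28.4% at 12 h, against 12.9% and 16.2% of those symbols. The 9 h and 12 h animals share no run of titles with baseline, so these comparisons could not be fitted with the run as a factor. Time and run cannot be told apart in them. The member that passed in sleep-deprived hearts at 6 h was Mrpl18, by -0.21. At 12 h of deprivation the lower members were Mrps34 (-0.37), Mrpl45 (-0.36), Mrpl49 (-0.33), Mrpl19 (-0.32), Mrps27 (-0.29), Mrps23 (-0.29), Mrps28 (-0.28), Mrpl18 (-0.22), Mrps2 (-0.19), Mrpl35 (-0.18) and Mrpl51 (-0.16). At 9 h of deprivation they were Mrps28, Mrps34, Mrpl49, Mrpl19, Mrps2 and Mrps23, from -0.33 to -0.19. At 12 h of sleep the lower members ran from Mrps2 (-0.42), Mrpl19 (-0.37), Mrpl34 (-0.36), Mrps11 (-0.35) and Mrps18b (-0.33) to Mrpl37 (-0.12), and at 9 h from Mrpl34 (-0.39) to Mrpl37 (-0.13). The higher members were Mrpl39 at 9 h of sleep (0.20), and Mrpl39 (0.19) and Mrpl27 (0.17) at 12 h. Values free of overlap with baseline were found after deprivation for 0 members at 3 h, Mrps27 at 6 h, Mrpl49 at 9 h, and Mrpl45, Mrpl49 and Mrps34 at 12 h, where 0.349%, 1.05%, 2.32% and 3.84% of all probe sets were free of overlap. After sleep they were found for Mrps27 at 3 h, 0 members at 6 h, Mrpl34, Mrpl49 and Mrps2 at 9 h, and Mrpl15, Mrpl19, Mrpl34, Mrpl35, Mrpl49 and Mrps2 at 12 h, where 0.197%, 0.748%, 1.89% and 4.15% of all probe sets were. With centred arrays sleep-deprived hearts at 9 h had 1 higher and 5 lower members. Without the 5 arrays that stand apart the members called numbered 16 for sleeping at 9 h and 3 for sleep-deprived at 6 h.

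**Figure D3:**
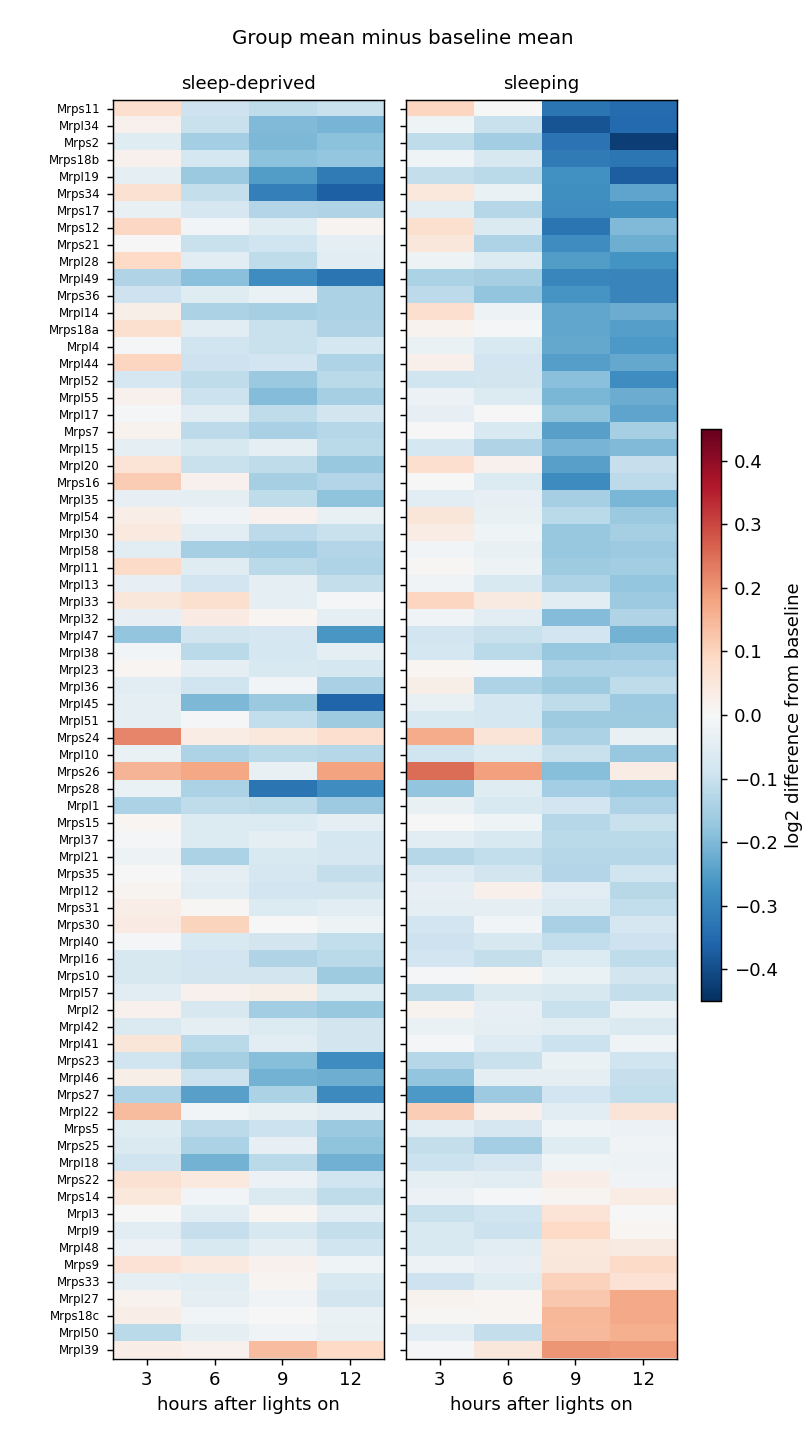
Group mean minus baseline mean (colour, log2) of each member (rows, ordered by slope over sleep) in sleep-deprived (left) and sleeping (right) hearts by hours after lights on (x). Most rows turn blue at 9 h and 12 h in sleeping hearts, where 23 and 21 members were lower than baseline, and the last rows, with Mrpl27, Mrps18c, Mrpl50 and Mrpl39, turn red.

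Mrps2, the small-subunit counterpart of bacterial S2, had the smallest p of the members over sleep. Its 10 baseline animals ran from 8.18 to 8.37 with a median of 8.30. After 3 h of deprivation it ran from 8.04 to 8.47 (median 8.19), after 6 h from 7.95 to 8.26 (median 8.18), after 9 h from 7.95 to 8.30 (median 8.07) and after 12 h from 7.84 to 8.24 (median 8.12). After 3 h of sleep it ran from 8.03 to 8.29 (median 8.17), after 6 h from 8.07 to 8.235 (median 8.14), after 9 h from 7.77 to 8.09 (median 7.97) and after 12 h from 7.62 to 8.08 (median 7.92). All sleeping animals at 9 h and 12 h lay below every baseline animal, whereas the sleep-deprived animals overlapped baseline at each time. Over 12 h Mrps2 fell by 0.42 ± 0.042 over sleep (SE, adjusted p = 3.21e-11) and by 0.21 ± 0.0481 over deprivation (adjusted p = 9.99e-04). Sleeping hearts at 12 h had 74.6% of the baseline intensity. With the run as a factor the change over sleep was -0.30 ± 0.0801 (SE, adjusted p = 0.027) and that over deprivation -0.22 ± 0.103 (adjusted p = 0.226).

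Mrpl19, of the large subunit and related to bacterial L19 at the face between the subunits, fell by similar amounts in both states. Baseline values ran from 8.45 to 8.76 with a median of 8.61. At 12 h the sleep-deprived animals ran from 8.07 to 8.48 with a median of 8.30, and the sleeping animals from 8.15 to 8.39 with a median of 8.20. All 9 sleeping and 7 of 8 sleep-deprived animals at 12 h were below the lowest baseline animal. The fall over 12 h was -0.36 ± 0.0386 over sleep (SE, adjusted p = 2.48e-10) and -0.34 ± 0.0487 over deprivation (adjusted p = 6.55e-07). With the run as a factor it was -0.30 ± 0.0787 over sleep (adjusted p = 0.019) and -0.33 ± 0.106 over deprivation (adjusted p = 0.0564).

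Among small-subunit members the steepest falls over 12 h of sleep were those of Mrps11 (-0.44 ± 0.0711, SE), Mrps2, Mrps18b (-0.38 ± 0.0617), Mrps34 (-0.31 ± 0.0675) and Mrps17 (-0.31 ± 0.0466). Mrps34 is a small-subunit protein without a bacterial counterpart, and it had the steepest fall of all members over deprivation, -0.43 ± 0.0785. Mrps28, the relative of bacterial S1, fell by 0.34 ± 0.0676 over deprivation, and Mrps23 by 0.27 ± 0.0509. Among large-subunit members Mrpl34 fell by 0.43 ± 0.0638 over sleep and by 0.25 ± 0.0567 over deprivation. Mrpl49, which bacteria lack, fell by 0.30 ± 0.0456 over sleep and by 0.33 ± 0.0507 over deprivation. Mrpl45, which sits at the exit of the protein tunnel and holds the ribosome to the inner membrane, fell by 0.33 ± 0.0568 over deprivation and by 0.16 ± 0.0434 over sleep. Mrpl58, a peptidyl-tRNA hydrolase that frees stalled ribosomes, fell by 0.19 ± 0.0368 over sleep. The other members that fell over sleep ran from Mrps12 (-0.31), Mrpl28 (-0.30), Mrpl14 (-0.30), Mrps18a (-0.29), Mrpl4 (-0.29) and Mrpl44 (-0.29) through Mrpl52 (-0.26), Mrpl55 (-0.25), Mrpl17 (-0.24), Mrps7 (-0.215), Mrpl15 (-0.21), Mrpl35 (-0.20), Mrpl54 (-0.20), Mrpl30 (-0.20), Mrpl11 (-0.19), Mrpl13 (-0.19), Mrpl33 (-0.18), Mrpl32 (-0.18) and Mrpl38 (-0.17) to Mrpl23 (-0.17), Mrpl51 (-0.16), Mrpl10 (-0.15), Mrps15 (-0.13) and Mrpl37 (-0.13). Over deprivation the others were Mrps27 (-0.24), Mrpl18 (-0.19), Mrpl35 (-0.17), Mrps7 (-0.17), Mrpl51 (-0.16), Mrps5 (-0.15) and Mrpl16 (-0.13).

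The members that rose over 12 h of sleep were Mrpl39 (0.235 ± 0.0381, adjusted p = 3.81e-06), Mrpl50 (0.20 ± 0.0586), Mrps18c (0.19 ± 0.0388) and Mrpl27 (0.18 ± 0.0383). Mrpl39 and Mrpl50 are large-subunit proteins that bacteria lack, Mrps18c is 1 of the mitochondrial relatives of bacterial S18, and Mrpl27 is the relative of bacterial L27 near the site of peptide bond formation. Mrpl39 had medians of 10.10 at baseline, 10.08 at 3 h, 10.12 at 6 h, 10.33 at 9 h and 10.28 at 12 h of sleep, and 6 of 9 sleeping animals at 9 h lay above the highest baseline animal. With the run as a factor the change of Mrpl39 over sleep was 0.07 ± 0.072 (SE, adjusted p = 0.725), and that of Mrpl50 was of the opposite sign. In the same fit Mrps18c changed by 0.07 ± 0.0753 (adjusted p = 0.728) and Mrpl27 by 0.03 ± 0.06985 (adjusted p = 0.909). The dimmer probe set of Mrpl27 gave 0.04 over 12 h of sleep without that factor (adjusted p = 0.712).

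**Figure D4:**
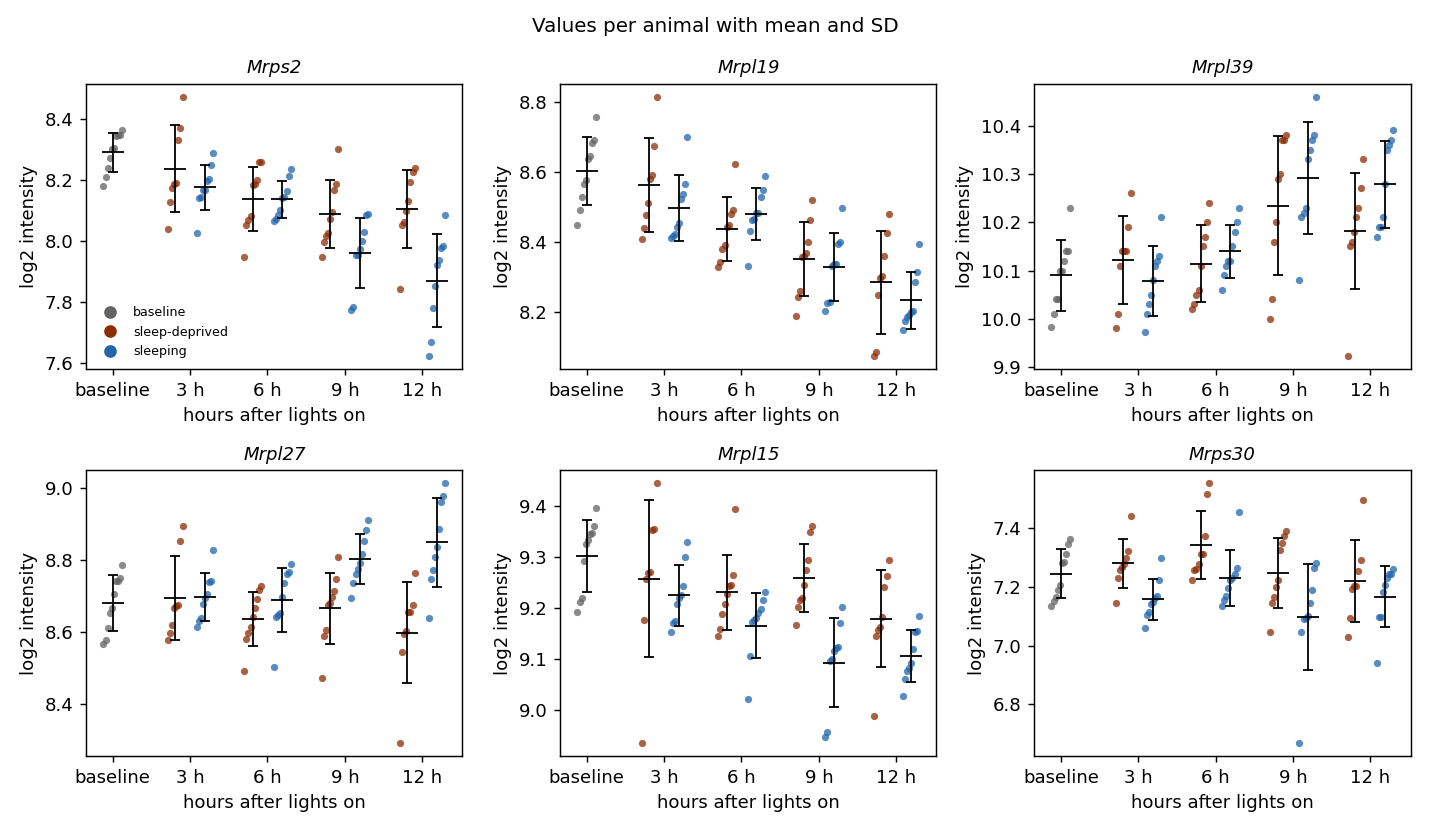
Log2 intensity (y) by hours after lights on (x) for 6 members, 1 point per animal, with the mean and SD of each group in black. Mrps2 and Mrpl19 are lower late in both states, Mrpl39 is higher late in sleeping hearts, and Mrpl27, Mrpl15 and Mrps30 differ between sleep-deprived and sleeping hearts.

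By subunit, 26 of 48 large-subunit (54.2%) and 8 of 25 small-subunit members (32%) fell over sleep, with medians of -0.17 and -0.13 over 12 h. Of all probe sets 9.32% fell over sleep, and of the symbols of like intensity 21.9%. Over deprivation 8 of 48 large-subunit (16.7%) and 7 of 25 small-subunit members (28%) fell, with medians of -0.11 and -0.13. Of all probe sets 6.09% fell over deprivation, and of the symbols of like intensity 15.2%. The large-subunit share over deprivation lay near the latter. Of the 43 members with a bacterial counterpart 21 fell over sleep (48.8%) and 9 over deprivation (20.9%). Of the 28 that mitochondria alone have 11 fell over sleep (39.3%) and 6 over deprivation (21.4%). With the run as a factor none of these calls remained. No test of these differences between classes was made.

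Markers of other cells moved over the same hours. Their trends were fitted without the run as a factor, so time and run cannot be told apart in them. Of all probe sets 8.23% rose and 9.32% fell over sleep, and 4.07% rose and 6.09% fell over deprivation. In sleep-deprived hearts 3.43% of all probe sets were higher. Of 5 adipocyte markers 4 rose over sleep, with a median of 1.46 over 12 h, and 1 rose over deprivation, with a median of 0.54. Their mean log2 intensity ran from 6.63 to 8.14 in sleep-deprived hearts at 12 h, from 6.54 to 8.58 in sleeping hearts at 12 h and from 5.92 to 8.08 at baseline. Of 4 lymphocyte markers 2 rose over sleep, with a median of 0.61. Cardiomyocyte markers gave 1 rising and 2 falling of 9 over sleep, with a median of -0.03 over 12 h. Of 7 endothelial markers 3 fell over sleep, with a median of -0.17 over 12 h, and 3 were higher in sleep-deprived hearts. Of 6 skeletal muscle markers 2 fell over sleep and 1 over deprivation, with medians of -0.46 and -0.51 over 12 h. Without baseline replicate 2, left out after seeing the data, in which these markers averaged 9.59 against a baseline median of 6.63, the medians were -0.12 and -0.22. Other arrays with high means of these markers were kept. They were baseline replicate 3 at 7.725 and sleep-deprived 6 h replicates 4 and 5 at 8.37 and 7.13. Fibroblast markers had a mean of 8.505 ± 0.0847 at baseline (SD), 8.38 ± 0.0769 at 12 h of deprivation and 8.365 ± 0.0722 at 12 h of sleep. For macrophage markers it was 8.41 ± 0.147, 8.40 ± 0.284 and 8.37 ± 0.0964. For erythroid markers it was 9.13 ± 0.292, 9.09 ± 0.392 and 8.75 ± 0.346. The part of these cells in the members' values was not tested.

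The question of the study was the difference between states. Pooled over 4 times (34 sleep-deprived and 36 sleeping animals), 2 of 74 members were higher in sleep-deprived hearts, or 2.7%, where 3.43% of all probe sets were, and 2 were lower, or 2.7%, where 4.94% were. The members were thus called no more often than the array as a whole, and of the 9533 symbols in their range of intensity 19.2% were called. Their median difference was 0.02 (log2), against -0.01 over all probe sets, and 43 of 74 differences were above 0, where 46% of all probe sets were. Pooled differences ran from -0.11 to 0.14. They average over the times and are not on the scale of a change over 12 h. At single times the differences ran from -0.25 for Mrpl27 at 12 h to 0.27 for Mrps12 at 9 h. The members higher in sleep-deprived hearts were Mrps30 and Mrpl15, and those lower were Mrpl27 and Mrpl18. After centring each array on its median 3 members were higher and 0 lower. The calls also varied with the times left out: without the 3 h animals 7 members passed, without the 6 h animals 1, without the 9 h animals 0 and without the 12 h animals 1. These refits have fewer arrays, and their shares of all probe sets are not given here.

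**Figure D5:**
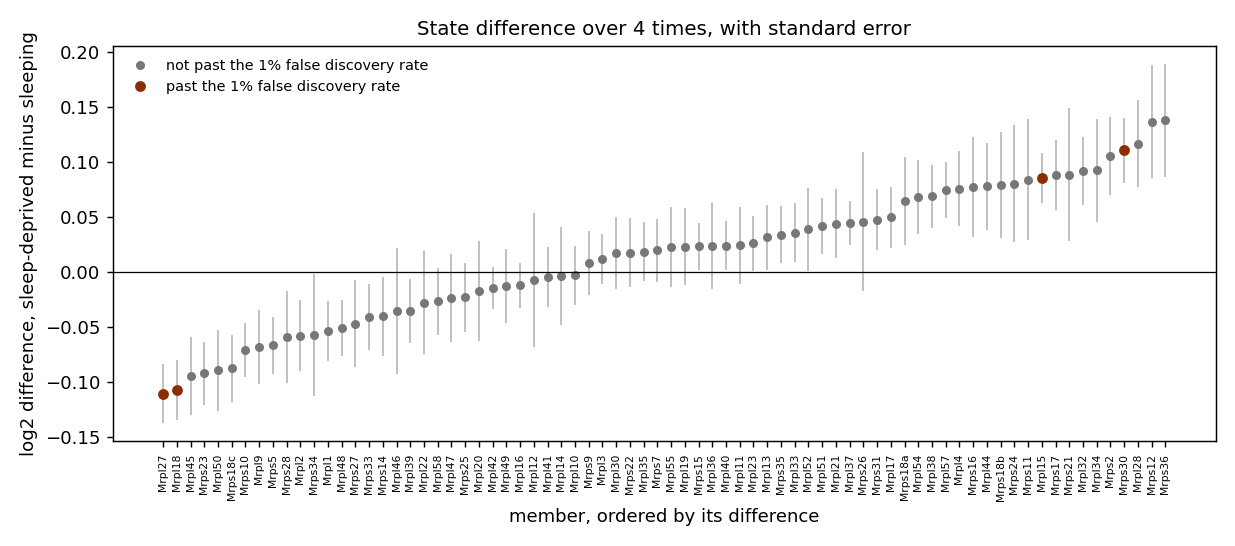
Difference between sleep-deprived and sleeping hearts (y, log2, with standard error) for each member (x, ordered by its difference). The 4 filled red points passed the 1% false discovery rate, and the larger differences of Mrps36, Mrps12 and Mrpl28, with wider standard errors, did not pass.

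Mrpl27 was lower in sleep-deprived hearts. Over all times the sleep-deprived animals had a lowest, median and highest value of 8.29, 8.66 and 8.895, and the sleeping animals 8.50, 8.76 and 9.01. The difference was -0.11 ± 0.0268 (SE, adjusted p = 0.00187). It was near 0 at 3 h, -0.05 ± 0.0466 at 6 h, -0.14 ± 0.0466 at 9 h and -0.25 ± 0.0481 at 12 h, where it passed (adjusted p = 2.48e-04). At 12 h the sleep-deprived animals ran from 8.29 to 8.76 with a median of 8.63 and the sleeping animals from 8.64 to 9.01 with a median of 8.84; 4 of 8 sleep-deprived animals lay below all sleeping ones. Within the 2 late runs the difference was -0.23 ± 0.0546 and -0.15 ± 0.042, and within the 2 early runs -0.03 ± 0.0397 and -0.03 ± 0.0551. A dimmer probe set of the same symbol gave -0.05 ± 0.037 over all times (adjusted p = 0.395), and whether either of the 2 also reads a near-identical copy such as a pseudogene is not known.

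Mrpl18, whose bacterial relative binds 5S ribosomal RNA, was lower as well. Over all times the sleep-deprived animals had a lowest, median and highest value of 9.31, 9.79 and 10.02, and the sleeping animals 9.68, 9.87 and 10.12. The difference was -0.11 ± 0.0273 (SE, adjusted p = 0.00321). It was below 0 in each of the 4 runs, from -0.15 to -0.05, and -0.19 ± 0.051 at 12 h (adjusted p = 0.00995). Without the 5 arrays that stand apart, of which sleep-deprived 12 h replicate 3 had the lowest value of 9.31, the 12 h difference was -0.14 ± 0.0473 (adjusted p = 0.0797). Its dimmer probe set gave -0.08 ± 0.0454 over all times (adjusted p = 0.297).

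Mrps30 is a large-subunit protein in spite of its name and has no bacterial counterpart. Sleep-deprived animals had a lowest, median and highest value of 7.03, 7.26 and 7.55 and sleeping animals 6.67, 7.17 and 7.46. The difference was 0.11 ± 0.0296 (SE, adjusted p = 0.00533), and it was above 0 at all 4 times and in all 4 runs. A second probe set, at a mean of only 4.24, gave 0.14 ± 0.0588 (adjusted p = 0.0999).

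Mrpl15, the relative of bacterial L15 of the large subunit, was higher in sleep-deprived hearts. Sleep-deprived animals had a lowest, median and highest value of 8.94, 9.24 and 9.45 and sleeping animals 8.95, 9.16 and 9.33. The difference was 0.09 ± 0.0229 (SE, adjusted p = 0.00537). At 9 h sleep-deprived animals ran from 9.17 to 9.36 and sleeping animals from 8.95 to 9.20, and 7 of 9 sleep-deprived animals exceeded all sleeping ones, with a difference of 0.17 ± 0.0406 (adjusted p = 0.0045). The gene also fell over 12 h of sleep, by 0.21 ± 0.031 (adjusted p = 4.76e-07). Within the 4 runs its state difference was 0.10, 0.15, 0.12 and -0.03.

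At single times few members passed, again in 1 limma fit of all arrays. After 3 h or 6 h 0 of 74 passed, where 1.59% and 2.58% of all probe sets did (3 and 4 members at an unadjusted p under 0.05, which 19.3% and 19.6% of all symbols met). At 9 h Mrpl15 was the 1 higher member and 0 were lower, where 1.6% and 1.71% of all probe sets were. At 12 h 2 were higher and 2 lower, where 1.44% and 1.69% of all probe sets were. In either direction 1.35% of the members were called at 9 h and 5.41% at 12 h, fewer than the 7.73% and 7.21% of the symbols of like intensity. The higher members were Mrps2, by 0.24 ± 0.0537 (SE, adjusted p = 0.00223), and Mrpl33, the relative of bacterial L33, by 0.16 ± 0.0403 (adjusted p = 0.00733). Mrpl33 at 12 h ran from 7.23 to 7.53 in sleep-deprived and from 7.03 to 7.29 in sleeping hearts, and 6 of 8 sleep-deprived animals exceeded all sleeping ones. For Mrps2 at 12 h this held for 5 of 8, and 0 of 74 members had states free of overlap at 3, 6, 9 or 12 h, where 0.45%, 0.655%, 0.591% and 0.779% of all probe sets had. Without the 5 arrays that stand apart Mrpl33 at 12 h was 0.13 ± 0.0412 (adjusted p = 0.0435). With centred arrays the 12 h calls were 3 higher and 1 lower. When only the arrays of that time entered the fit, 0 members passed after 9 h or 12 h. A change of the state difference with time was found for 0 of 74 members, where 0.371% of all probe sets passed (13 members at an unadjusted p under 0.05, which 20% of all symbols met); the smallest p was that of Mrpl27 (adjusted p = 0.0841).

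Among the largest differences that did not pass, Mrps36 was 0.14 ± 0.0512 and Mrps12, the relative of the bacterial decoding-site protein S12, 0.14 ± 0.051, both higher on average in sleep-deprived hearts (adjusted p = 0.0612 and 0.063). Mrpl28 was 0.12 ± 0.0392, Mrps2 0.11 ± 0.0354, Mrpl34 0.09 ± 0.0463, Mrpl32 0.09 ± 0.0308 and Mrps21 0.09 ± 0.0600. On the other side Mrpl45 was -0.09 ± 0.0352, Mrps23 -0.09 ± 0.0287, Mrpl50 -0.09 ± 0.0365, Mrps18c -0.09 ± 0.0303, Mrps10 -0.07 ± 0.0247 and Mrpl9 -0.07 ± 0.0334. At single times the widest values that did not pass were those of Mrpl46 (0.20), Mrps28 (0.15), Mrps30 (0.12), Mrpl1 (-0.11), Mrps26 (-0.10) and Mrpl47 (-0.09) at 3 h, and of Mrps36 (0.12), Mrps30 (0.11), Mrps22 (0.09), Mrpl18 (-0.14), Mrpl45 (-0.12) and Mrpl20 (-0.12) at 6 h. At 9 h they were those of Mrps12 (0.27), Mrps36 (0.24), Mrps11 (0.21), Mrps28 (-0.18), Mrpl46 (-0.17) and Mrpl9 (-0.16), and at 12 h of Mrps11 (0.25), Mrpl28 (0.22), Mrps18c (-0.20) and Mrpl45 (-0.19). Differences were above 0 at all 4 times in 11 members, below 0 at all 4 in 5 and of both signs in 58.

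Of 12 members with more than 1 probe set, the probe sets of Mrpl10, Mrpl18, Mrpl27, Mrps5 and Mrps30 differed in call. Mrpl10, at the base of the stalk, fell over 12 h of sleep by 0.15 ± 0.0403 on its bright probe set (mean 10.07), and the slope of the dim one (mean 6.49) was -0.02. For Mrps5 both probe sets were similar in slope over deprivation, -0.15 and -0.14, with adjusted p of 0.00858 and 0.0544.

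Promoter sequence could be read for 65 of 74 members from RefSeq (GRCm38.p6), as the 250 bases before the annotated start. NRF1 and the ETS factor GABP are known regulators of nuclear genes for mitochondrial proteins, so the core of the NRF1 motif (GCATGCGC) and an ETS core (CCGGAAG) were searched on both strands; neither contains the other. The NRF1 core was in 8 of 65 members, 12.3%, and in 2.56% of all 27025 genes of the table. The ETS core was in 16 of 65, 24.6%, and in 7.83% of all genes. Among the 27 members with a promoter that fell over sleep 6 held the ETS core, and among the other 38 10 did; for the NRF1 core it was 5 and 3. A match is a description of the letters alone. The windows of Mrpl27 (chr11:94653541-94653790, + strand) and Mrpl18 (chr17:12916092-12916341, - strand), lower in sleep-deprived hearts, of Mrps2 (chr2:28467816-28468065, + strand), which fell most clearly over sleep, and of Mrpl39 (chr16:84735245-84735494, - strand), which rose, are shown with matches in capitals.
Mrpl27: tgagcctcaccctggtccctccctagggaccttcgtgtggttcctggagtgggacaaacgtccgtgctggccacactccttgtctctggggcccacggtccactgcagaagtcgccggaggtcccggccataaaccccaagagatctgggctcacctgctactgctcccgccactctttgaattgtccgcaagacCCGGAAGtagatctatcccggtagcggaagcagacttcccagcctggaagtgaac
Mrpl18: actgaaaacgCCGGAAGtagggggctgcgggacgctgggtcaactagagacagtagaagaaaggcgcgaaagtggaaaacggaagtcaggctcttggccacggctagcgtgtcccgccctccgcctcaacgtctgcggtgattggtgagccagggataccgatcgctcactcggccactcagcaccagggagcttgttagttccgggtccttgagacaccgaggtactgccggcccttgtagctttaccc
Mrps2: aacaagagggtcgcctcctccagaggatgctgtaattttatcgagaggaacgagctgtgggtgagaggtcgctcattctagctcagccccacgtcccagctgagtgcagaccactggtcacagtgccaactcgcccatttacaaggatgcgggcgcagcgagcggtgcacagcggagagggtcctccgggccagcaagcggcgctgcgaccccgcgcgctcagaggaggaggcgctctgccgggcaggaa
Mrpl39: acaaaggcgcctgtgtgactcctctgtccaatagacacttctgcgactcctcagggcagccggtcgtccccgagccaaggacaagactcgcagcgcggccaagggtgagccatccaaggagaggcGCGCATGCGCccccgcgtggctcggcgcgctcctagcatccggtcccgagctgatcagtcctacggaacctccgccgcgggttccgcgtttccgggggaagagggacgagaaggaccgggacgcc
The ETS core begins 55 bases before the start in Mrpl27 and 240 bases before it in Mrpl18, Mrps2 holds neither motif, and Mrpl39 holds 2 overlapping NRF1 cores on opposite strands.

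Other genes of the same route give the setting. As background for the counts below, 9.32% of all probe sets fell over sleep and 6.09% over deprivation. Of the symbols in the members' range of intensity 21.9% and 15.2% fell, and that range was not matched to the lists below. The pooled test of state called 3.43% of the array upward and 4.94% downward with deprivation. Of the symbols in the members' range of intensity it called 19.2% in either direction. Whether a list fell, or was called between states, more often than this background was not tested. The trends of the lists were fitted without the run as a factor, so time and run cannot be told apart in them. Among 21 assembly factors of the mitochondrial ribosome, sleep-deprived hearts had more of the GTPases Noa1 (0.18 ± 0.027) and Mtg2 (0.15 ± 0.035), and less of the GTPase Gtpbp10 (-0.19 ± 0.0358) and of Rcc1l (-0.11 ± 0.0303). Over sleep 7 of the 21 fell and over deprivation 4, with medians of -0.13 and -0.12 over 12 h. Of 19 mitochondrial aminoacyl-tRNA synthetases 1 was higher and 1 lower, Wars2 (0.13 ± 0.0361) and Rars2 (-0.16 ± 0.0269), and 7 fell over sleep and 5 over deprivation. Of 12 translation factors the ribosome recycling factor Mrrf was higher (0.09 ± 0.0222) and the Cox1 translation activator Taco1 lower (-0.12 ± 0.0296), and 4 fell in each trend. Of 80 subunits of the respiratory chain and ATP synthase 0 differed between states, 21 fell over sleep and 4 over deprivation, with medians of -0.07 and -0.05 over 12 h. Of 74 cytosolic ribosomal proteins 1, Rpl30, was lower in sleep-deprived hearts (-0.14 ± 0.034), 19 fell over sleep and 2 over deprivation, with medians of -0.04 and -0.05.

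Among 14 regulators of mitochondrial biogenesis, Myc was higher in sleep-deprived hearts by 0.58 ± 0.0643 and Ppargc1b, a coactivator of nuclear genes for mitochondria, lower by -0.27 ± 0.0401. Over 12 h of sleep Pprc1, another coactivator of that family, fell by 0.31, the nuclear receptor Esrrg by 0.23 and Ppargc1b by 0.22. All slopes in this paragraph were fitted without the run as a factor, so time and run cannot be told apart in them. Tfam, which packs and transcribes mitochondrial DNA, was lower in sleep-deprived hearts (-0.11 ± 0.0304, adjusted p = 0.00727) and fell by 0.26 over 12 h of deprivation. Of 3 mitochondrial ribosomal proteins named otherwise, Ptcd3 was lower in sleep-deprived hearts (-0.10 ± 0.0284, adjusted p = 0.00875), Chchd1 fell over 12 h of sleep by 0.25 (adjusted p = 0.00286) and Dap3 passed in neither comparison (adjusted p = 0.794 between states and 0.0465 over sleep).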

How the data were processed

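Total RNA from heart was labelled and hybridised by the authors to Affymetrix Mouse Gene 1.0 ST arrays. Per the methods of the study, the authors used R/oligo to summarise each probe set as 1 log2 value by RMA, tissue by tissue. The deposited values are these log2 intensities, but the decimal points were absent; they were restored here after the first digit, or after the second where the digits began with 10 to 13, which applied to 173799 of 2844480 values and to 859 values of members. Of all values, 1 was reread from the level of its probe set, and it was no member's. No column of fold changes or p-values was used.

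Tests were run with limma 3.58.1 in R 4.3.3 (moderated tests, Benjamini-Hochberg over 35556 probe sets, false discovery rate 1%): state alone without baseline; 9 group means for single times, baseline and interaction; and slopes on hours. The study's shrunken F test was replaced by limma. The functions were tested on simulated data. Tables and figures were made with pandas 2.3.3 and matplotlib 3.10.9. A probe set was named from the array's annotation where that gave 1 symbol (21218 probe sets), and probe sets with several (1881) or none (12457) named no gene; Mrpl24, Mrpl43, Mrpl53 and Mrps6 were therefore not analysed here. Named members were those past the threshold in any comparison, the 8 largest pooled differences in each direction, the 3 largest at each time and for 12 h against 9 h, the 5 steepest slopes, the 6 highest and 6 lowest levels, and those whose probe sets differed in call; of the lists, those among the 5 smallest p-values that passed, besides some named for their slopes after their values were seen. The members were set by symbol and annotation, whereas the gene lists were chosen with earlier results of these data known. Each animal is 1 sample with 1 array, and the number of arrays limits the precision. Alternatives covered scaling, filters, variance model, runs of title numbers, times left out and arrays that stand apart.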

Additional observations from a re-analysis of the deposited data

Results flagged for a closer look

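In groups of 8 to 10 animals, single animals were set against the rest of their group (Dixon's criterion at 95%) for the mean of the members and for 9 members, 90 groups of values in all. Chance flags about 1 in 20 such groups, and 9 were flagged, 7 of them on arrays that stand apart.

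The mean of the members was 8.93 in sleep-deprived 3 h replicate 5, against 8.74 in the next animal, and 8.43 in sleeping 9 h replicate 1, against 8.57 in the next. Sleep-deprived 12 h replicate 3 was lowest of its group for Mrpl27 at 8.29 (next 8.55), for Mrpl18 at 9.31 (next 9.61) and for Mrpl39 at 9.92 (next 10.15). Sleeping 9 h replicate 1 was lowest for Mrps30 at 6.67 (next 7.05) and for Mrpl49 at 9.04 (next 9.30). On arrays that do not stand apart, Mrps30 was 7.46 in sleeping 6 h replicate 1 (next 7.26), and Mrpl15 was 9.39 in sleep-deprived 6 h replicate 3 (next 9.27).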

How the results depend on the processing

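Of the tests of single members past the threshold, 428 repeats under an alternative kept direction and side of the threshold, 1 changed sign and the rest kept the direction without passing. The changed sign was that of Mrpl50 over sleep, a slope of -0.0132 per hour with the run as a factor. The causes were not tested. For the counts that follow, the shares of all probe sets under each alternative are not given, so they describe the members' calls alone.

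Members called between states, 4 in all, numbered 2 with the mean of all probe sets of a member, 7 without the 3 h animals, 1 without the 6 h animals, 0 without the 9 h animals, 1 without the 12 h animals, 6 (2 higher and 4 lower) without the arrays that stand apart and 11 at a false discovery rate of 5%. At 9 h, 1 became 2 with centred arrays or with the dimmest 40% left out, 0 with the arrays of that time alone and 4 at 5%. At 12 h, 4 became 7 without the dimmest 40% or with the run as a factor, 2 with array weights, 0 with that time alone, 2 without the arrays that stand apart (chosen after seeing the data) and 11 at 5%.

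Against baseline, array weights gave 6 in place of 1 for sleep-deprived 6 h, 13 in place of 6 for sleep-deprived 9 h, and 1 in place of 0 for sleeping 3 h and for sleeping 6 h. Without the arrays that stand apart sleep-deprived 6 h had 3, and with centred arrays sleeping 12 h had 36 in place of 23. The comparisons of 9 h and 12 h with baseline could not be repeated with the run as a factor. The slope over deprivation had 24 called members with array weights, 0 with the run as a factor and 3 without baseline, in place of 15. The slope over sleep had 0 with the run as a factor in place of 38, and its median was then -0.0082 per hour. Between 12 h and 9 h, and for the interaction, no alternative at 1% gave a call.

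Differences of about 0.1 lie within the spread of single animals. No paired analysis was possible because the replicate numbers only name animals in accession order.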
